A study of Homo sapiens with 15 samples.

Results

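Small leucine-rich proteoglycans are secreted matrix proteins with a core of leucine-rich repeats, most of which carry chondroitin, dermatan or keratan sulfate chains. Expression of 7 genes of this family was examined, namely FMOD, DCN, LUM, BGN, OGN, ASPN and PRELP, out of 60605 genes measured. The 7 were named as a family because FMOD was lower in passaged cells, and the question was whether the other members followed. The difference of FMOD between passaged and static culture is therefore given as a description with no test, whereas the other members were tested. Of the 7 genes, 5 reached an FPKM (counts scaled by exonic length and library total) of at least 1 in at least 1 library and were among the 21206 genes tested, and OGN and ASPN did not.

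The cells were H1, an established wild-type human embryonic stem cell line. All cells received CHIR99021, an activator of WNT signalling, in a defined medium called DF on day 0, and insulin on day 1, and the libraries of days 0, 1 and 2 (1 each) were shared by all conditions. From day 2 there were 3 arms, each with 1 library on days 3, 5, 7 and 10. NP-ctrl cells remained in static culture with no inducer. NP-IWP2 cells remained in static culture with IWP2, which blocks the secretion of WNT ligands, from day 2 to day 4. Passaged cells were detached with EDTA, split into more wells and replated on Matrigel on day 2 without a WNT inhibitor. The paper reports that a ROCK inhibitor was added in the differentiation experiments that follow its survival tests. Replating, lower density and a ROCK inhibitor therefore cannot be told apart in the passaged arm. Total counts ranged from 13254723 to 20250115 per library. No arm had a second library on any day, so that intervals on ratios of 2 libraries cover counting error only. The p-values of arm comparisons rest on how much differences between arms varied over the 4 days of 1 series of cultures. Those of day 10 against day 3 rest on how much changes over days varied between the 3 arms. For slopes they rest on scatter around a straight line per arm. In the main fits the spread was estimated over all 3 arms together. The share of counts from mitochondrial genes lay between 1.53% on day 3 and 10.3% on day 10 in passaged cells and between 3.71% and 6.02% in static culture, and its part in the results was not tested.

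Members of this family bind collagen fibrils and limit or guide how fibrils grow, and decorin (DCN) also binds TGF-beta. They fall into classes by sequence. DCN, biglycan (BGN) and asporin (ASPN) form class I, fibromodulin (FMOD), lumican (LUM) and prolargin (PRELP) belong to class II, and osteoglycin (OGN) belongs to class III. In the heart and other organs they are mostly made by fibroblasts and related connective tissue cells rather than by muscle cells. In bulk RNA, fewer cells of a type and less RNA per cell cannot be told apart.

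Several members lie beside each other in the genome (GRCh38). FMOD (chr1:203340628-203351758, minus strand) and PRELP (chr1:203475806-203491352, plus strand) were 124047 bases apart with no other protein-coding gene between them. LUM (chr12:91102629-91111494) and DCN (chr12:91140484-91183217) lay on the minus strand, 28989 bases apart. OGN (chr9:92383268-92404696) and ASPN (chr9:92456205-92482506) were on the minus strand inside the span of CENPP, which runs on the plus strand, and BGN (chrX:153494980-153509546, plus strand) overlaps the end of HAUS7 on the other strand. Whether the counting used the strand was not stated, so reads of overlapping genes may not be fully separated for OGN, ASPN and BGN.

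Because FMOD and PRELP were the members whose passaged levels lay below every static library, the 250 bases before their RefSeq start sites (GRCh38.p14) are shown, with BGN, which did not separate in this way, for comparison. The RefSeq start of FMOD lies inside the gene span given above, so that its window is within the gene as counted. The PRELP and BGN windows end where the gene spans begin. Capitals mark matches on either strand to TATAAA (the TATA box), GGGCGG (the GC box), CAGAC (a SMAD element), GGAATG (a TEAD site) or TGANTCA (an AP-1 site), and no matches overlapped.
FMOD, chr1:203351123-203351372, minus strand: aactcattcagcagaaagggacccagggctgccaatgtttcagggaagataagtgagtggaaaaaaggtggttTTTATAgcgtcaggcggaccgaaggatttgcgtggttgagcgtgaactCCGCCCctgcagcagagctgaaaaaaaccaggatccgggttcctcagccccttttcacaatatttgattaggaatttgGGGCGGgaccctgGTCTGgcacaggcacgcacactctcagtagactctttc
PRELP, chr1:203475556-203475805, plus strand: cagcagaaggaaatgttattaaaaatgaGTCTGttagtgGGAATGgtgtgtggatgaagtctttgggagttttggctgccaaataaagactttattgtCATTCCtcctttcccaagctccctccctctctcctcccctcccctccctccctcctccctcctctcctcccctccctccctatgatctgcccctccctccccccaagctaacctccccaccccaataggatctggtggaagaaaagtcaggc
BGN, chrX:153494730-153494979, plus strand: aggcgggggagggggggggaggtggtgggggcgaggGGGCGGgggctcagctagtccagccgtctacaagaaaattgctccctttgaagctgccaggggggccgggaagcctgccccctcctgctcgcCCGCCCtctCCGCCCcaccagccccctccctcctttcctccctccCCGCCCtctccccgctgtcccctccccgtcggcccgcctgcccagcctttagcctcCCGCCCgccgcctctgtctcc

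Over the 35116 promoters of the same length, TATAAA was present in 10.7%, GGGCGG in 42.6%, CAGAC in 38.0%, GGAATG in 11.9% and TGANTCA in 6.57%. The FMOD window held 1 match to TATAAA, 2 to GGGCGG and 1 to CAGAC. In the PRELP window there were 2 matches to GGAATG and 1 to CAGAC, and the BGN window held 5 matches to GGGCGG only. FMOD and PRELP thus shared CAGAC, which is common. GC content was 51.6% for FMOD, 52.8% for PRELP and 74.0% for BGN, against a median of 58.0% over all promoters. A match is a description of letters and not a binding site.

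Fibromodulin is the member that led to this family. Its FPKM was 0.06, 0.14 and 0.94 on days 0, 1 and 2. In NP-ctrl it reached 14.5, 24.9, 84.4 and 47.9 on days 3, 5, 7 and 10, and in NP-IWP2 it reached 6.91, 16.6, 43.7 and 36.8. Passaged cells had 3.01, 1.12, 1.47 and 4.40 on the same days. Every passaged library was thus below every static library, and static culture peaked on day 7 while passaged cells were highest on day 10. The separation was already present on day 3, 1 day after replating, when FMOD was 4.83-fold lower in the passaged arm than in NP-ctrl (95% interval 3.99 to 5.89) and 2.30-fold lower than in NP-IWP2 (1.85 to 2.86). FMOD was nevertheless higher on day 3 than on day 2 in all arms, 15.4-fold in NP-ctrl, 7.32-fold in NP-IWP2 and 3.19-fold (2.32 to 4.43) after passaging. On days 5, 7 and 10 the gap to NP-ctrl was 22.2-, 57.3- and 10.9-fold (9.42 to 12.6 on day 10), and the passaged library of day 10 had 2.99-fold more FMOD than that of day 7. The fitted difference over days was -3.77 (SE 0.52) on the log2 scale against NP-ctrl and -3.03 (SE 0.51) against NP-IWP2. Between the static arms FMOD differed less, with NP-IWP2 2.10-, 1.5-, 1.93- and 1.30-fold below NP-ctrl on days 3, 5, 7 and 10.

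**Figure D1:**
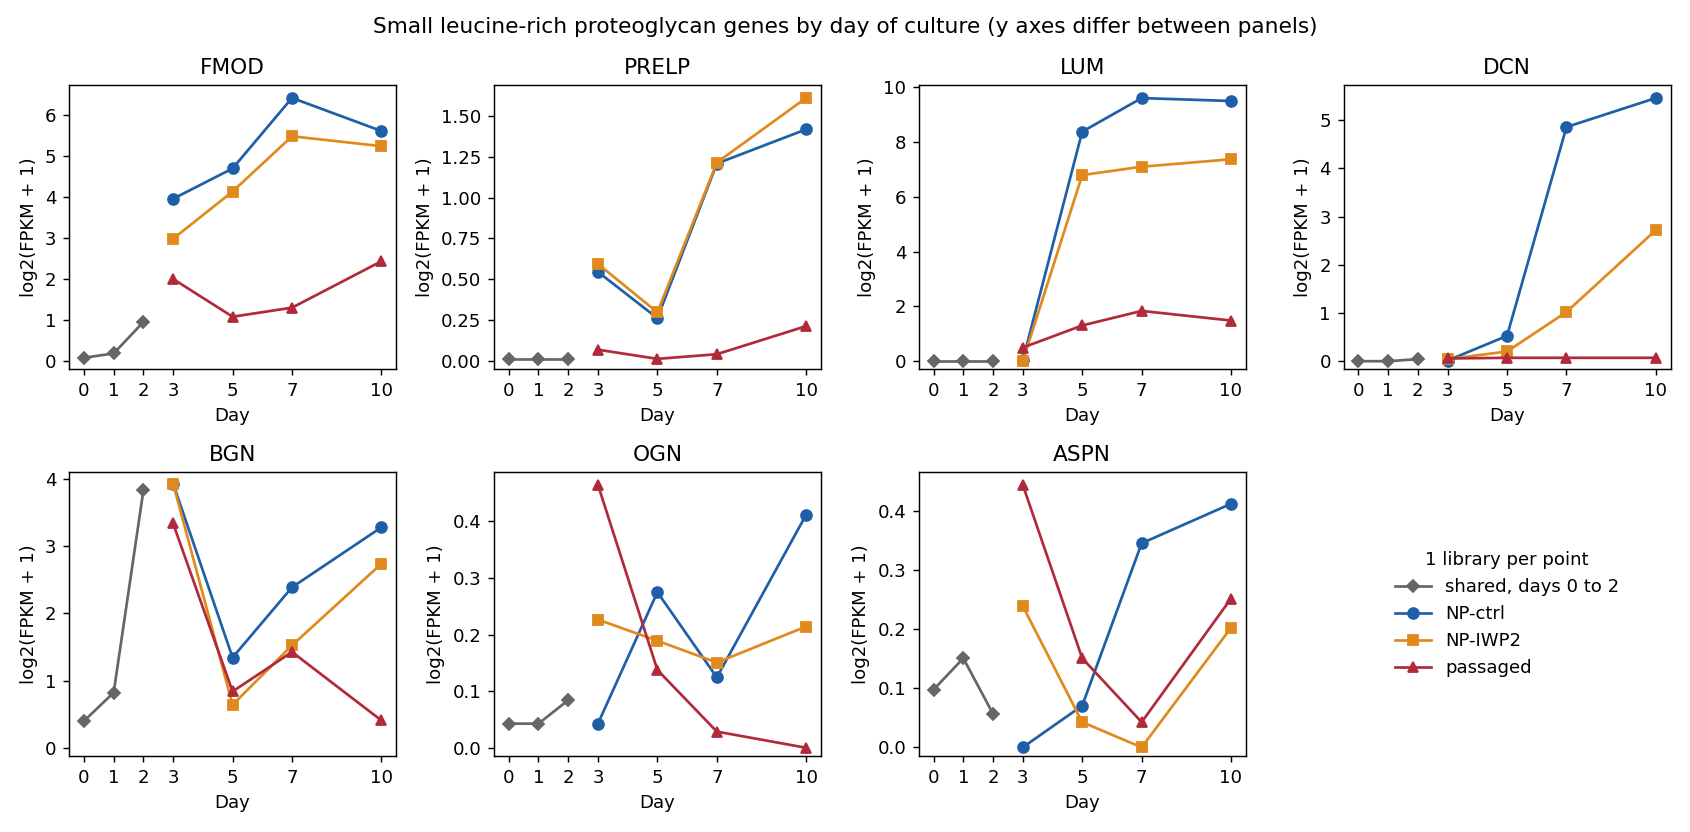
Level of each of the 7 genes as log2(FPKM + 1) (y axis, scaled separately in each panel) against the day of culture (x axis), with 1 library per point, grey for the shared days and a colour for each arm. FMOD and PRELP of passaged cells stayed below both static arms on all 4 days, and LUM and DCN were below both from day 5. BGN was lower on day 5 than on day 3 in all arms. OGN and ASPN stayed below an FPKM of 1 throughout.

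Among the 4 other members that were tested, 3 were lower in the passaged arm than in NP-ctrl at an adjusted p under 0.05 (edgeR quasi-likelihood test with Benjamini-Hochberg adjustment over all genes), namely PRELP, LUM and DCN, whereas BGN did not pass. In the same comparison 2.76% of all genes tested were called lower. DCN and PRELP entered the test only through static libraries, so that this count describes the genes and is not further support. By a difference of at least 1 in log2(FPKM + 1) on single days, 0, 1, 3 and 4 of the 4 members other than FMOD were lower on days 3, 5, 7 and 10, beside 3.48%, 4.42%, 8.29% and 11.7% of all genes tested. LUM was the member on day 5, LUM, DCN and PRELP were those on day 7, and BGN joined on day 10. Against NP-IWP2 the counts were 0, 1, 2 and 4 of 4 on the same days, beside 5.05%, 4.02%, 4.38% and 7.01% of all genes. This measure leaves out low genes such as PRELP on day 3, since a difference of 1 cannot be reached below an FPKM of 1.

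PRELP encodes a heparin-binding protein that anchors basement membranes to connective tissue, and it lies next to FMOD on chromosome 1. Its FPKM was 0.01 on each of days 0, 1 and 2. It then read 0.46, 0.20, 1.31 and 1.67 on days 3, 5, 7 and 10 in NP-ctrl, 0.51, 0.23, 1.32 and 2.05 in NP-IWP2. Passaged libraries had 0.05, 0.01, 0.03 and 0.16. As for FMOD, all passaged values were below all static values, a pattern shared by 2.65% of genes tested against NP-ctrl and 2.08% against NP-IWP2. PRELP was a low gene, with 18 to 187 counts in static libraries and 4, 1, 3 and 14 counts in the passaged ones. On day 3 it was 9.05-fold lower in the passaged arm than in NP-ctrl (3.29 to 34.7), and on day 10 it was 10.5-fold lower (6.04 to 19.7). The fitted difference was -3.75 (SE 0.39) on the log2 scale against NP-ctrl (edgeR, adjusted p = 0.000856) and -3.90 (SE 0.39) against NP-IWP2 (edgeR, adjusted p = 0.00146). PRELP was the only 1 of the 4 members tested that was called against NP-IWP2, where 1.33% of all genes were called, 0.915% lower. Since PRELP passed the filter only through static libraries, its calls in both comparisons describe the gene and are not further support. Both calls were lost without the day block and with limma on log2(FPKM + 1).

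Lumican, a keratan sulfate proteoglycan that spaces collagen fibrils, was the most abundant member. No read was counted on days 0, 1 and 2. Between day 3 and day 5 in NP-ctrl its FPKM went from 0.02 (1 count) to 332 (13887 counts), and it then reached 778 and 723 on days 7 and 10. NP-IWP2 had 0, 110, 136 and 165 on days 3, 5, 7 and 10. Passaged cells had 0.41, 1.47, 2.57 and 1.80, which is 15, 60, 103 and 73 counts. From day 5 on, the 3 arms were separated on every day in the order NP-ctrl, NP-IWP2, passaged, and no intervals of the ratios included 1. LUM was 225.5-fold lower in the passaged arm than in NP-ctrl on day 5 (175 to 296), 302-fold on day 7 (249 to 371) and 402-fold on day 10 (320 to 513). By FPKM it held ranks 53, 15 and 20 of 19942 protein-coding genes in NP-ctrl on days 5, 7 and 10, whereas its best rank after passaging was 9378. The fitted difference was -7.21 (SE 1.61) on the log2 scale against NP-ctrl (edgeR, adjusted p = 0.0303).

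On day 3 the order was opposite. LUM had 15 counts in passaged cells, 1 in NP-ctrl and 0 in NP-IWP2, so that it was 17.8-fold higher than NP-ctrl with a wide interval (2.74 to 750) and at least 4.93-fold higher than in NP-IWP2, with 3 counts as the floor. A shift of this kind was not rare, since 2.99% of protein-coding genes with at most 3 counts in NP-ctrl on day 3 had at least 10 in passaged cells, and 2.76% did the reverse. Day 3 also set the test against NP-IWP2, where the fitted difference of LUM was -5.28 (SE 1.5) with an edgeR adjusted p = 0.142 over 4 days and -6.07 with 9.39e-06 when day 3 was left out. DCN was called too without day 3 (edgeR, adjusted p = 0.0398).

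Decorin appeared last. It had 0 counts on days 0 and 1 and 7 on day 2, and on day 3 it had 3 and 5 counts in NP-ctrl and NP-IWP2 and 7 after passaging. Its FPKM in NP-ctrl was then 0.44, 28.1 and 43.1 on days 5, 7 and 10, with 63.9-fold more on day 7 than on day 5 (51.8 to 79.7). NP-IWP2 had 0.15, 1.03 and 5.58. In passaged cells DCN stayed at 0.05 on all 3 days, with 10, 10 and 9 counts, near its level on day 3. Day 10 and day 3 of that arm did not differ beyond counting error, with a ratio of 1.16 (0.38 to 3.65). Relative to NP-ctrl, DCN in passaged cells was 8.67-fold lower on day 5, 544-fold lower on day 7 (296 to 1136) and 942-fold lower on day 10 (496 to 2061). The fitted difference was -7.07 (SE 1.46) on the log2 scale against NP-ctrl (edgeR, adjusted p = 0.0225) and -4.13 (SE 1.46) against NP-IWP2 (edgeR, adjusted p = 0.249).

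The calls of LUM and DCN against NP-ctrl rested on all 3 later days. Leaving out day 5, day 7 or day 10 moved the edgeR adjusted p of LUM to 0.236, 0.346 and 0.167 and that of DCN to 0.0647, 0.276 and 0.131. The differences themselves were then -6.60, -6.43 and -6.64 for LUM and -8.13, -5.27 and -5.48 for DCN. Both calls were also lost without the day block, with differences of -8.09 for LUM and -8.48 for DCN, and with limma on log2(FPKM + 1). Using only the libraries of the 2 arms compared gave an edgeR adjusted p of 0.207 for LUM and 0.220 for DCN, with differences of -7.10 and -6.63.

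Biglycan, which like decorin carries chondroitin or dermatan sulfate, followed a different course. Before the arms parted its FPKM was 0.32, 0.77 and 13.2 on days 0, 1 and 2, so that day 2 was 41.5-fold above day 0 (24.1 to 78.4). On day 3 it was 14.3 in both NP-ctrl and NP-IWP2 and 9.12 after passaging. On day 5 the NP-ctrl, NP-IWP2 and passaged libraries had 1.54, 0.56 and 0.79, which is 9.26-, 25.5- and 11.5-fold below day 3. It then reached 4.24 and 8.71 on days 7 and 10 in NP-ctrl and to 1.88 and 5.67 in NP-IWP2, while passaged cells had 1.69 on day 7 and 0.33 on day 10. BGN thus was high on days 2 and 3 and low on day 5 in all arms, and passaged cells parted from static culture mainly on day 10. Relative to NP-ctrl it was 1.56-, 1.95-, 2.50- and 26.6-fold lower on days 3, 5, 7 and 10 (15 to 52.0 on day 10). Over all days the fitted difference was -1.53 (SE 0.55) on the log2 scale (edgeR, adjusted p = 0.146), while DESeq2 gave an adjusted p of 0.0399 for the same genes and libraries. With no filter on genes, edgeR gave an adjusted p of 0.000752 for BGN. On day 5 the passaged value did not differ from NP-IWP2 beyond counting error (ratio 1.41, 0.77 to 2.67), nor did it on day 7 (0.90, 0.63 to 1.28).

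**Figure D2:**
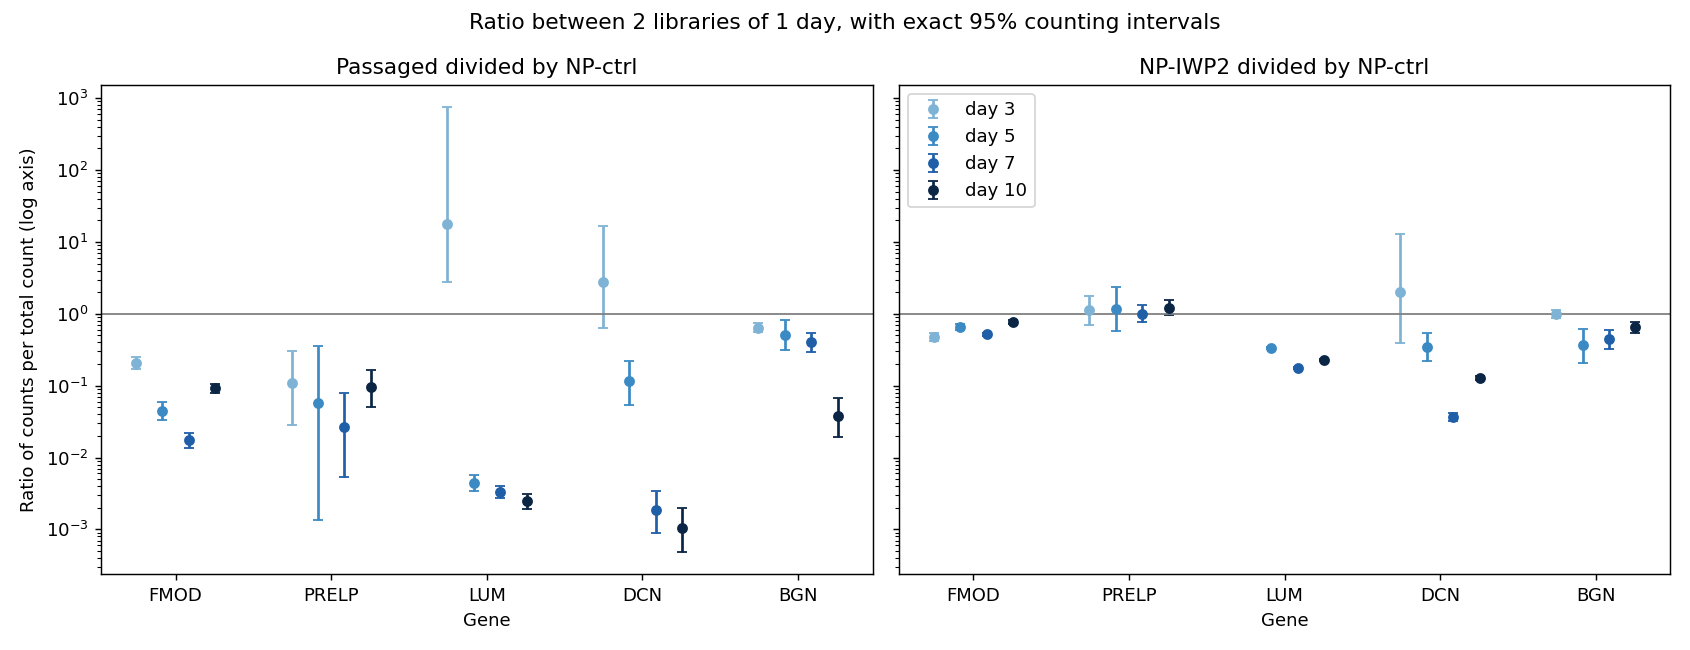
Ratio of counts per total count between 2 libraries of the same day (y axis, log scale) for 5 genes (x axis), passaged divided by NP-ctrl on the left and NP-IWP2 divided by NP-ctrl on the right, shaded by day, with exact 95% counting intervals as bars. LUM is without a point on day 3 on the right because it had 0 counts in NP-IWP2 and 1 in NP-ctrl. LUM and DCN reached the lowest ratios in passaged cells, 402-fold and 942-fold lower on day 10, and the PRELP intervals on the right all include 1.

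Osteoglycin and asporin, class III and class I members of bone and cartilage matrix, were barely expressed. OGN had 0 to 21 counts per library and a highest FPKM of 0.38, and ASPN had 0 to 12 counts and a highest FPKM of 0.36. For both genes the highest of the 15 libraries was passaged cells on day 3. OGN had 21 counts there, 9 in NP-IWP2 and 2 in NP-ctrl, a ratio to NP-ctrl of 12.5 (3.05 to 110). On day 3 ASPN had 12, 6 and 0 counts in the same order, at least 4.75-fold higher in the passaged arm than in NP-ctrl. OMD, the keratan sulfate proteoglycan osteomodulin that lies between them on chromosome 9, had 23, 3 and 5 counts, and passaged day 3 was again its highest library. CENPP, the centromere protein gene that spans OGN, OMD and ASPN, had 264, 129 and 231 counts. Passaged day 3 was thus also the highest of the 15 libraries for CENPP. Whether reads of CENPP entered the counts of the genes inside it was not tested. By day 10 OGN was at 0 counts in passaged cells, 10 in NP-IWP2 and 18 in NP-ctrl, so that it was at least 6.78-fold lower in the passaged arm than in NP-ctrl. ASPN had 7, 6 and 11 counts on that day and did not differ between passaged cells and NP-ctrl beyond counting error (ratio 0.56, 0.19 to 1.59).

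Summed over the 7 genes, the FPKM was 29.3, 359, 896 and 825 in NP-ctrl on days 3, 5, 7 and 10, 22.1, 128, 184 and 215 in NP-IWP2, and 13.4, 3.65, 5.86 and 6.93 in passaged cells. The sum was thus higher after day 3 than on day 3 in static culture and lower after day 3 than on day 3 in passaged cells. LUM made up 92.4%, 86.8% and 87.6% of the sum in NP-ctrl on days 5, 7 and 10 and 86.2%, 73.9% and 76.5% in NP-IWP2. In passaged cells LUM accounted for 40.3%, 43.9% and 26.0% on these days, and FMOD was the largest share on day 10 with 63.5%. On day 3 BGN made up 48.6% and 64.7% of the NP-ctrl and NP-IWP2 sums and 68.2% of the passaged one. The FPKM of DCN depends on the gene length used. With the length of the canonical transcript (6850 bases) in place of all exonic bases (12941 bases), DCN in NP-ctrl on day 10 had an FPKM of 81.4, above FMOD at 49.3, while the deposited FPKM placed DCN (43.1) below FMOD (47.9). LUM was above both with either length.

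**Figure D3:**
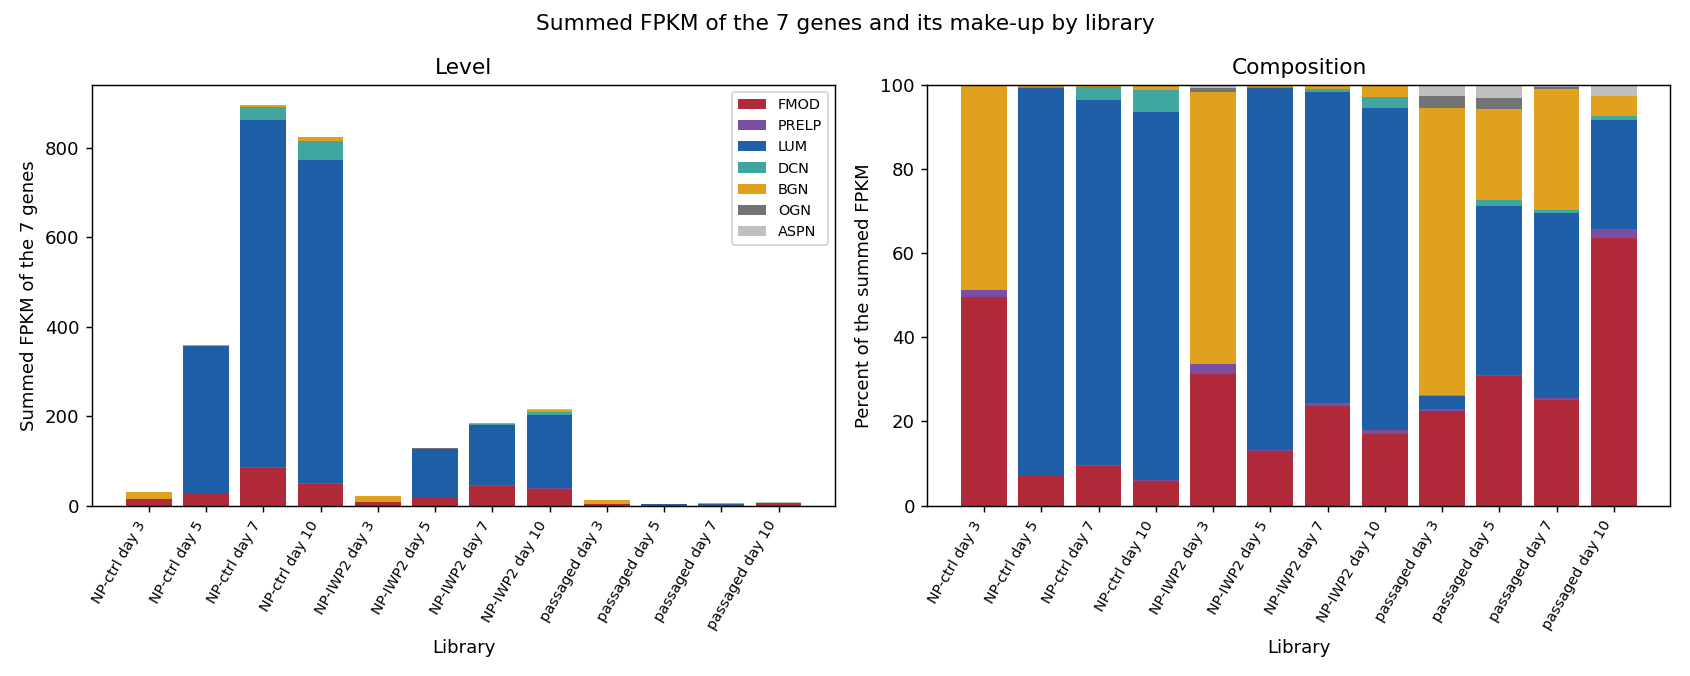
Stacked bars of the summed FPKM of the 7 genes (left, y axis in FPKM) and of each gene as a percent of that sum (right, y axis in percent) in the 12 libraries of days 3 to 10 (x axis), with 1 library per bar and a colour for each gene. LUM fills most of each static bar from day 5, up to 92.4%, while the passaged sums, between 3.65 and 13.4, are hardly visible on the left.

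The members differed unequally between the static arms. Against NP-ctrl, LUM in NP-IWP2 was 3.02-, 5.71- and 4.39-fold lower on days 5, 7 and 10. DCN was 2.87-, 27.2- and 7.72-fold lower on these days. BGN was at the same level on day 3 (ratio 1.00, 0.88 to 1.13) and 2.76-, 2.26- and 1.54-fold lower on days 5, 7 and 10. PRELP did not differ on any day beyond counting error, with ratios of 1.12, 1.17, 1.01 and 1.22. By a difference of at least 1 in log2(FPKM + 1), 0, 1, 2 and 2 of the members other than FMOD were lower in NP-IWP2 on days 3, 5, 7 and 10, beside 0.858%, 1.55%, 4.28% and 5.64% of all genes, and none had its highest NP-IWP2 value below its lowest NP-ctrl value over the 4 days (0.443% of all genes did). Over days, 0 of the 4 members tested were called with edgeR, where 0.0189% of all genes were called in either direction, and 1 of them had an unadjusted p below 0.05. This was DCN, with a difference of -2.94 (SE 1.01) and an edgeR adjusted p = 0.958. DESeq2 and limma also called 0. LUM was called with edgeR without day 3, and LUM and DCN were called when only the libraries of both static arms were used, so that the call depended on what entered the fit. All 3 comparisons share libraries, since NP-ctrl and passaged cells each enter more than 1.

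From day 3 to day 10, with the arm as a block, 3 of the 5 members tested rose, LUM by 9.58 (SE 2.14) on the log2 scale (edgeR, adjusted p = 0.00535), DCN by 8.14 (SE 1.74) (edgeR, adjusted p = 0.00420) and PRELP by 1.98 (SE 0.40) (edgeR, adjusted p = 0.00302). Among all genes 35% were called, 17.9% higher and 17.1% lower, so that change over time was common. LUM, DCN and PRELP entered the test only through libraries after day 3, so that their calls describe the genes and are not further support. FMOD was 1.51 (SE 0.54) higher with an edgeR adjusted p of 0.0510 and BGN -1.67 (SE 0.61) with 0.0538. Leaving out the NP-IWP2 arm left 0 of these calls, while calls over all genes went from 7423 to 2235 of 21206, and leaving out the passaged arm gave 5, with 7262 over all genes. With limma on log2(FPKM + 1), LUM and BGN were called and DCN and PRELP were not (limma, adjusted p = 0.0697 and 0.0509). These are differences over all arms, and DCN alone in the passaged arm had the ratio of 1.16 given above. No member tested had a slope over days that differed from NP-ctrl with edgeR, neither in passaged cells, where 0.16% of all genes were called, nor in NP-IWP2, where 0% were. These slopes are straight lines, whereas LUM in NP-ctrl had 1, 13887, 27536 and 25982 counts on days 3, 5, 7 and 10. The absence of a call therefore does not show that the courses over days were alike. The unadjusted edgeR p was under 0.05 for 1 of 4 members in passaged cells, DCN with a slope difference of -1.71 (SE 0.54) per day (adjusted p = 0.190), and for 0 of 4 in NP-IWP2. DESeq2 called DCN in passaged cells, and limma called 0.

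The other family members were mostly absent. Of 11 further genes of the family, 4 passed the filter, and 0 were called between passaged cells and NP-ctrl with edgeR, DESeq2 or limma. With edgeR, 1 had an unadjusted p under 0.05. All 4 differences were negative, but PODN and ECM2 entered the test only through static libraries, so that their sign is not further support. TSKU, a secreted regulator of signalling in the embryo, was expressed at 4.01 to 15.5 FPKM in every library and differed by -0.57 (SE 0.21, edgeR adjusted p = 0.155). CHAD, a cartilage protein that binds integrin, differed by -0.44, PODN by -0.88 and ECM2, which lies next to ASPN, by -1.94 (SE 1.07, edgeR adjusted p = 0.368). On day 10 ECM2 had 151 and 64 counts in the NP-ctrl and NP-IWP2 libraries and 2 after passaging. KERA and EPYC, the neighbours of LUM toward lower coordinates, had at most 2 and 0 counts in any library, and OPTC, the neighbour of PRELP, had at most 8. The high levels on chromosome 12 were thus found for LUM and DCN and not for the next family members.

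Genes of other kinds beside the members were not called. BTG2, an antiproliferative gene next to FMOD, differed by -0.24 (SE 0.23, edgeR adjusted p = 0.645) and ATP2B4, a calcium pump gene beyond PRELP, by -0.70 (SE 0.24, edgeR adjusted p = 0.129). BTG1, the next gene beyond DCN, differed by 0.56 (SE 0.32, edgeR adjusted p = 0.379), CCNQ near BGN by 0.12, and NOL8, IARS1 and IPPK around the chromosome 9 group by 0.29, 0.34 and 0.34. CHIT1 near FMOD, PLEKHG7 beyond BTG1, and TREX2, ZFP92 and ATP2B3 near BGN were below the filter.

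Lists of genes that work with these proteoglycans are described by counts only. Over all genes tested the median fitted difference of the passaged arm from NP-ctrl was -0.0025 on the log2 scale, with 4.4% called, 1.64% higher and 2.76% lower. Of 14 collagen genes listed as ligands of the family, 2 were higher and 4 lower with a median of -1.35. The named ones that were lower were COL1A2 (-2.54, SE 0.58) and COL6A2 (-2.52, SE 0.29), and COL2A1 (3.39, SE 0.39), the collagen of cartilage, and COL5A3 (5.41, SE 1.17) were higher. COL2A1 reached 1059 FPKM in passaged cells on day 7 beside 85.1 in NP-ctrl, whereas COL1A2 was at 44.5 and 440. Of the 12 libraries from day 3 on, COL5A3 was above an FPKM of 1 only in passaged day 3, at 6.49, and its call describes the gene and is not further support.

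Of 21 genes of collagen processing and cross-linking 3 were lower and 1 higher with a median of -0.16. The cross-linking enzyme LOX differed by -2.27 (SE 0.39), the prolyl hydroxylase subunits P4HA2 and P4HA1 by -1.03 (SE 0.18) and -0.84 (SE 0.16), and the procollagen protease ADAMTS3 by 0.82 (SE 0.19). Enzymes that build the sugar chains were counted in 2 lists. In chondroitin and dermatan sulfate synthesis 1 of 21 was higher, XYLT1, which starts the chain (1.06, SE 0.24), with a median of 0.08, and in keratan sulfate synthesis 0 of 10 were called with edgeR (3 at an unadjusted p under 0.05, 2 with DESeq2, 0 with limma) with a median of -0.25. The most expressed genes of the latter list, B3GNT2 and B4GALT1, differed by 0.56 (SE 0.23) and -0.32 (SE 0.17). Among 17 other proteoglycans 1 was lower, the syndecan SDC4 (-1.05, SE 0.19), and the median was 0.31.

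Of 14 matrix proteases 1 was lower, the aggrecanase ADAMTS4 (-1.53, SE 0.34), with a median of -0.19. Among 18 TGF-beta ligands, receptors and targets 2 were higher, the matricellular target CCN2 (2.12, SE 0.35) and LTBP1, which holds latent TGF-beta in the matrix (1.82, SE 0.36), and the median was -0.00031. Of 9 receptors and partners 1 was higher, the collagen receptor subunit ITGA2 (2.42, SE 0.43), and 1 lower, CCN4 (-4.46, SE 0.95), with a median of -0.60. From day 3 on, ADAMTS4 and CCN4 reached an FPKM of 1 only in static libraries, and ITGA2 only in passaged ones. Their calls describe the genes and are not further support. The counts of these lists depended on the tool. DESeq2, which called 2150 of all 21206 genes, called 8 of the collagens, 5 of the collagen processing genes, 4 of the chondroitin and dermatan sulfate genes, 3 of the other proteoglycans, 7 of the proteases, 5 of the TGF-beta genes and 4 of the receptors. With limma, which called 163 of all genes, the counts were 3, 1, 0, 1, 0, 0 and 0.

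Lists of cell type markers differed between the arms in both directions, and their part in these results was not tested. The 8 mesenchyme or fibroblast markers had a summed FPKM over days 3 to 10 between 179 and 3788 in NP-ctrl, between 157 and 1210 in NP-IWP2, and between 122 and 456 after passaging. Of these markers 3 of the 8 were called lower in the passaged arm than in NP-ctrl, namely DDR2 (-4.72, SE 0.82), TCF21 (-3.80, SE 0.92) and COL1A2 (-2.54, SE 0.58). TCF21 was at 0 in passaged cells on days 7 and 10. On day 3 this sum was 230 in passaged cells and 179 in NP-ctrl, and TCF21 was at 1.63 and 7.69. Of 6 epicardium markers 4 were lower, WT1 (-7.83, SE 0.72), TBX18 (-5.86, SE 1.36), TCF21 (-3.80, SE 0.92) and BNC1 (-3.70, SE 0.89), and the sums of NP-ctrl, NP-IWP2 and passaged libraries on day 10 were 123, 91.8 and 0.84. Of 6 liver and yolk sac endoderm markers 3 were lower, AFP (-13.01, SE 0.85), APOA2 (-8.17, SE 1.26) and TTR (-7.27, SE 1.27), with sums on day 10 of 2965, 869 and 3.33 in the same order. Of the 12 libraries from day 3 on, DDR2, WT1, TBX18, AFP, APOA2 and TTR reached an FPKM of 1 only in static ones. Their calls describe the genes and are not further support. DESeq2 called 4 of the mesenchyme or fibroblast markers, 4 of the epicardium markers and 4 of the endoderm markers, while limma called 1, 1 and 0.

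Of 8 cardiomyocyte markers 2 were called higher with edgeR, MYH7 (6.59, SE 0.70) and TNNC1 (2.69, SE 0.53). DESeq2 called 5 of the 8 and limma 0, and all 8 fitted differences from NP-ctrl were positive. By a difference of at least 1 in log2(FPKM + 1), 1 of the 8 was higher on day 3 and 8 on day 10. On day 3, 3 differences were positive and 5 negative. The sums on day 10 were 510, 1538 and 4014 in the order used above. MYH7 and its neighbour MYH6 are alike in sequence, so that reads may be split between them. Tendon and cartilage markers, the other tissues in which FMOD is abundant, summed to 21.3 to 102 in NP-ctrl and 136 to 1071 in passaged cells. Nearly all of the passaged sums was COL2A1, with 124, 749, 1059 and 503 of 136, 764, 1071 and 513 FPKM on days 3, 5, 7 and 10. COL2A1 was the only 1 of 5 tested that was called, and TNMD, the tendon marker, was at 0 in passaged days 5 and 7 and NP-ctrl day 10. Smooth muscle (3 tested) and endothelium (5 tested) had 0 calls with edgeR, and in each list 1 gene had an unadjusted p under 0.05, 1 was called by DESeq2 and 0 by limma. The 5 pluripotency markers summed to 1630 on day 0 and to 29.0, 25.2 and 15.8 on day 10. In the fit of passaging against NP-ctrl, edgeR called 1 of these 5, SOX2, with a difference of 5.92 (SE 1.01). DESeq2 called 2 and limma 0. Of the 5 differences 2 were positive and 3 negative, with a median of -0.43.

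**Figure D4:**
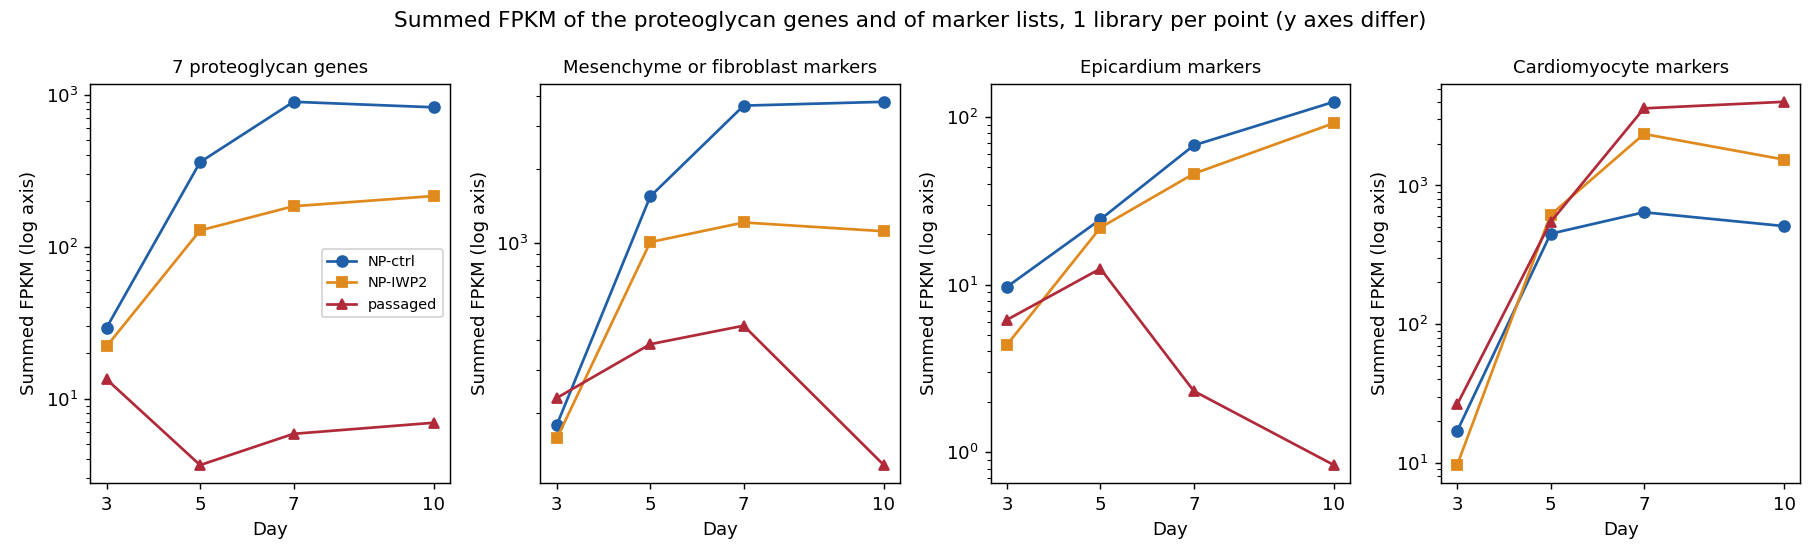
Summed FPKM (y axis, log scale that differs between panels) of the 7 proteoglycan genes and of the mesenchyme or fibroblast, epicardium and cardiomyocyte marker lists against the day (x axis), with a colour for each arm and 1 library per point. The passaged sums on day 10 were 6.93, 122, 0.84 and 4014, below both static arms in the first 3 panels and above them in the last.

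The genes whose log2(FPKM + 1) was most like that of a member over the 15 libraries, among 13874 protein-coding genes tested, differed from member to member. For FMOD they were F10 (Pearson r = 0.955), ZNF630, COL1A2, FREM1 and DENND2A (0.925). For LUM they were PLA2G12B (0.985), RELN, BNC1, MTTP and VTCN1 (0.977). For DCN they were CHI3L1 (0.988), ABI3BP, PRODH2, AKR1D1 and ASGR2 (0.977). The 3 lists had no gene in common. Between members r was 0.864 for FMOD and LUM, 0.854 for FMOD and PRELP, 0.807 for DCN and PRELP, 0.768 for LUM and DCN and 0.710 for FMOD and DCN, while BGN had 0.280 with FMOD, 0.259 with DCN and -0.054 with LUM. The 15 libraries share 1 time course and 3 common starting libraries, so these values describe shape only. Among 13874 genes LUM ranked 86 by likeness to FMOD, PRELP 111, DCN 970 and BGN 5354.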

How the data were processed

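Bulk RNA sequencing of 15 libraries of H1 cells was analysed. Per the labels, the authors trimmed reads with Cutadapt (1.9.1), aligned them to hg38 with HISAT2 (2.0.1) and counted them per Ensembl gene with HTSeq (0.6.1). Their library kit is for long reads whereas these tools are for short reads, and this was not resolved. The deposited counts are raw whole numbers. The deposited FPKM values equal those counts scaled by exonic length and total count, within 0.005. Samples were grouped by their titles. Genes that reached an FPKM of 1 in any library were tested with edgeR (4.0.16, R 4.3.3) on the counts, TMM normalization, 12 libraries of 3 arms, and day as a block (arm as a block for day 10 against day 3). Genes with an adjusted p under 0.05 were called. Trends over days were tested as the interaction of arm with day. DESeq2 (1.42.0), limma (3.58.1) on log2(FPKM + 1), median-of-ratios scaling, no filter, a filter of at least 10 counts in at least 4 libraries, no day block, 2 arms only and leaving out each day or arm were alternatives. The edgeR fit was tested on simulated counts. Ratios of single libraries carry exact Clopper-Pearson based 95% intervals, which cover counting error only, because each arm had 1 library a day. PCR copies are not independent molecules, so the intervals may be too narrow even for counting error. Against 0 counts a bound at 3 counts is given, and no fold is given where both libraries had at most 3. The pseudocount was 1, and differences on this scale understate changes of low genes.

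The members and gene lists were chosen with earlier results of these data known. Named were all members, from each list the 4 called genes with the largest differences between passaged cells and NP-ctrl (or, with no call, the 2 most expressed), the family members above the filter, the 2 nearest protein-coding genes on each side, and the 5 genes most correlated with FMOD, LUM and DCN. OMD, KERA, EPYC, OPTC and CENPP were also named for their position. Coordinates are those of the deposited table and were identical in GENCODE 44 for all 7 members. Upstream sequences were taken from RefSeq (GRCh38.p14), in which 5 of the 7 members were matched; LUM and DCN were not. Columns of the authors' comparisons were not used.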

Additional observations from a re-analysis of the deposited data

Results flagged for a closer look

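In 3 members the direction of a difference between arms was opposite on day 3 and on a later day, with counting intervals of the ratio that lay on different sides of 1. With 1 library per arm and day, whether the difference changed between days was not tested. Values are differences in log2(FPKM + 1). LUM in passaged cells was 0.47 above NP-ctrl on day 3 and differed by -7.07, -7.77 and -8.01 on days 5, 7 and 10. Against NP-IWP2 it was 0.50 higher on day 3 and differed by -5.49, -5.26 and -5.89 on the later days. OGN in passaged cells was 0.42 above NP-ctrl on day 3 and at -0.41 on day 10, and against NP-IWP2 it was at 0.24 and -0.21 on these days. ASPN in passaged cells was at 0.44 against NP-ctrl on day 3 and at -0.30 on day 7, and in NP-IWP2 it was at 0.24 and -0.34 against NP-ctrl on the same days. OGN and ASPN had at most 21 and 12 counts in any library.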

How the results depend on the processing

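Counts of members called depended on the model more than on the scaling. For passaged against NP-ctrl, 3 of 4 members were called. With DESeq2 4 of 4 were called, and with no filter 4 of 6, BGN in addition in both. In each comparison of arms or slopes, 6 members were tested with no filter and 5 with the filter on 10 counts. For day 10 against day 3 these numbers were 7 and 6. The count was 1 with only the 2 compared arms, 0 with limma on log2(FPKM + 1), 0 without the day block, and 1 to 3 when 1 day was left out. For passaged against NP-IWP2, 1 was called, 3 with no filter, 0 with limma, 0 without the day block, and 1 to 3 when 1 day was left out, while calls over all genes were 282, 1368, 6, 2 and 13 to 675. For NP-IWP2 against NP-ctrl, 0 were called, 2 with no filter, 2 with only the 2 compared arms, and 0 to 1 when 1 day was left out, while calls over all genes were 4, 372, 277 and 0 to 35. For day 10 against day 3, 3 of 5 were called, 5 with DESeq2, 5 with no filter, 2 with limma, and 0 to 5 when 1 arm was left out, while calls over all genes were 7423, 8191, 8428, 7464 and 2235 to 7262. For the slope of passaged cells against NP-ctrl, 0 were called, 1 with DESeq2 and 0 to 1 when 1 day was left out, while calls over all genes were 34, 1060 and 0 to 90. Over all genes the calls of passaged against NP-ctrl moved too, from 933 to 2150 with DESeq2, 163 with limma, 2571 with no filter, 109 with 2 arms, 1 without the day block, and 133 to 2373 when 1 day was left out. The tests without the filter covered 41457 genes and the others 21206, except for the filter on 10 counts with 18974. The cause of these moves was not tested. Median-of-ratios scaling and the filter on 10 counts kept the number of members called in every comparison. Differences turned sign only for slopes that were not called, namely PRELP in passaged cells (main 0.026, limma -0.13, without 1 day -0.47 to 0.24) and BGN in NP-IWP2 (main -0.073, without 1 day -0.26 to 0.16). Of 252 other settings for single members, 207 kept both the direction and the side of the threshold. Ratios of single libraries moved by a factor of 0.819 to 1.13 with TPM, TMM sizes or totals without mitochondrial genes, and 58 of 60 stayed inside their counting interval. No paired analysis by replicate number was possible because each arm had 1 library a day and the labels carry no replicate numbers. Depth limits PRELP, OGN, ASPN and passaged DCN, whose ratios rest on few counts.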
